A study of Rattus norvegicus with 6 samples.

Results

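Cacna1c encodes the pore-forming subunit of Cav1.2, and the stretch of this gene on rat chromosome 4 was examined in a table of regions whose methylation differed between stressed and unstressed rats. Brain microvascular endothelial cells (BMECs) were sorted from the hippocampus as CD45-/CD31+ cells. The CUMS group held 3 samples from rats that underwent chronic unpredictable mild stress for 8 weeks, and the Ctrl group held 3 samples from rats left in their home cages. All animals were male Sprague-Dawley rats, 6 weeks old when purchased. The stretch was bounded by the first and last region that the authors' annotation assigned to Cacna1c, from 151792918 to 152321278 (mRatBN7.2), a length of 528 kb. Every region that lay wholly inside it was a member, and this gave 43 of the 160692 regions in the full list. Of these, 9 were annotated to the gene, and the other 34 were CHH regions for which no annotation was given. Cell identity could not be checked against marker genes, because methylation and not RNA was measured.

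Cav1.2 is an L-type voltage-gated calcium channel, which opens when the membrane depolarises and lets calcium enter the cell. Its auxiliary beta and alpha2delta subunits modulate its gating and its delivery to the membrane. In mammals, most methylated cytosines are followed by a guanine (CG context), and the pattern is copied to the new strand at each cell division. Methylation in the CHG and CHH contexts, where H stands for A, C or T, is sparse in most cell types and reaches higher levels in neurons and in pluripotent cells. CpG islands are short stretches rich in CG sites that are usually little methylated.

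The authors combined the samples of a group, so each region has 1 level per group. The tables hold no depth per region, p-value or spread between samples. No difference was therefore tested here or can be set against replicate error, although the regions themselves come from the authors' own test with DSS. Each region was listed because the groups differed there, and the smallest difference in the tables was 2.00 percentage points. The study's methods state a larger minimum of 10 percentage points, which 1 of the 43 members and 0 of the 9 hypomethylated ones reached. The differences thus describe the regions as deposited and not the gene as a whole. The 43 members covered 1.25% of the stretch.

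The direction of the members was examined first. Of the 43 regions, 34 were higher in CUMS (hypermethylated) and 9 were lower (hypomethylated), a hypermethylated share of 79.1%. Over the full list, 65.3% of regions were hypermethylated. This value lies within the 95% exact binomial limits of the share in the stretch, 64.0% to 90.0%. These limits treat the regions as independent and say nothing about the spread between rats. Both CG regions of the stretch were hypermethylated, where the list as a whole had 80.0%, and so were all 4 CHG regions, against 68.6%. All 9 hypomethylated members were thus in the CHH context. Among the 37 CHH members 28 were hypermethylated (75.7%), compared with 64.6% of all CHH regions. The surroundings had lower shares, also on few regions. In the 528 kb below the stretch 19 of 33 CHH regions were hypermethylated (57.6%), and in the 528 kb above it 23 of 35 (65.7%).

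**Figure D1:**
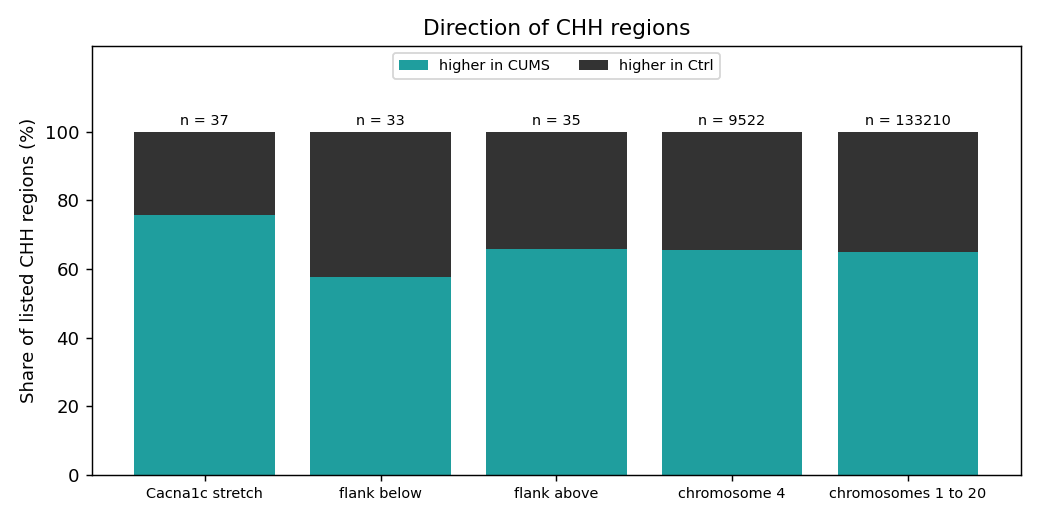
Share of listed CHH regions that were higher in CUMS or higher in Ctrl (%, vertical axis) in the Cacna1c stretch, in the 528 kb on either side of it, on chromosome 4 and on chromosomes 1 to 20. The hypermethylated share was 75.7% in the stretch, 57.6% and 65.7% in the flanks, 65.6% on chromosome 4 and 65.02% on chromosomes 1 to 20.

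The 34 CHH regions without annotation were all weakly methylated in both groups. In the 26 hypermethylated ones the median CUMS level was 2.51% (2.03% to 4.66%) and the median Ctrl level was 0.0808% (0.0128% to 0.732%). The 8 hypomethylated ones mirrored these values, with a median of 2.51% in Ctrl (2.14% to 3.20%) and 0.164% in CUMS (0.0438% to 0.250%). Of the 34, 76.5% were hypermethylated, compared with 63.5% of the 135827 CHH regions without annotation in the full list. The binomial limits of the share in the stretch were 58.8% to 89.3% and include that of the full list. They again treat the regions as independent and do not measure the spread between rats. The 34 are among the 43 members above, so this is not a separate comparison.

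The differences in these regions lay close to the smallest one in the table. In 21 of the 34 regions (61.8%) the difference was under 2.5 percentage points, whereas the share was 39.7% over all CHH regions without annotation. All 34 lay under 5 points, compared with 91.3% of that background. The median difference was 2.37 points in the stretch and 2.68 points in the background. The regions had a median length of 151 bp and 55.5 cytosines, against 168 bp and 57 cytosines, so they were slightly shorter and slightly denser in cytosines (36.8 and 34.8 per 100 bp).

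Among the hypermethylated regions without annotation, the largest difference was that of 152117569 to 152117789, from 0.445% in Ctrl to 4.66% in CUMS. A region at 151970731 to 151970885 followed with 0.732% and 4.62%. These 2 regions thus also had the highest Ctrl levels of the hypermethylated regions without annotation. At 152263422 to 152263667 the level was 0.0784% in Ctrl and 3.84% in CUMS, and at 151982602 to 151982785 it was 0.276% and 3.60%. At 152152838 to 152153027 the level was 0.0149% in Ctrl and 3.44% in CUMS, close to the lowest Ctrl level of all 43 regions. The 5 regions were spread over 293 kb. In the other 21 hypermethylated regions the level was 2.03% to 3.32% in CUMS and 0.0128% to 0.313% in Ctrl.

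The hypomethylated regions without annotation covered a narrower range. The difference was largest at 151868855 to 151869051, with 3.20% in Ctrl and 0.189% in CUMS, followed by 152245883 to 152246071 with 2.91% and 0.181%. These regions lay 377 kb apart. At 152154473 to 152154567 the level was 2.53% in Ctrl and 0.147% in CUMS, at 152190873 to 152191015 it was 2.51% and 0.139%, and at 151977603 to 151977741 it was 2.51% and 0.250%. The Ctrl levels of these 3 regions lay between 2.51% and 2.53%. The remaining 3 regions were lower in CUMS by 2.07 to 2.11 points.

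**Figure D2:**
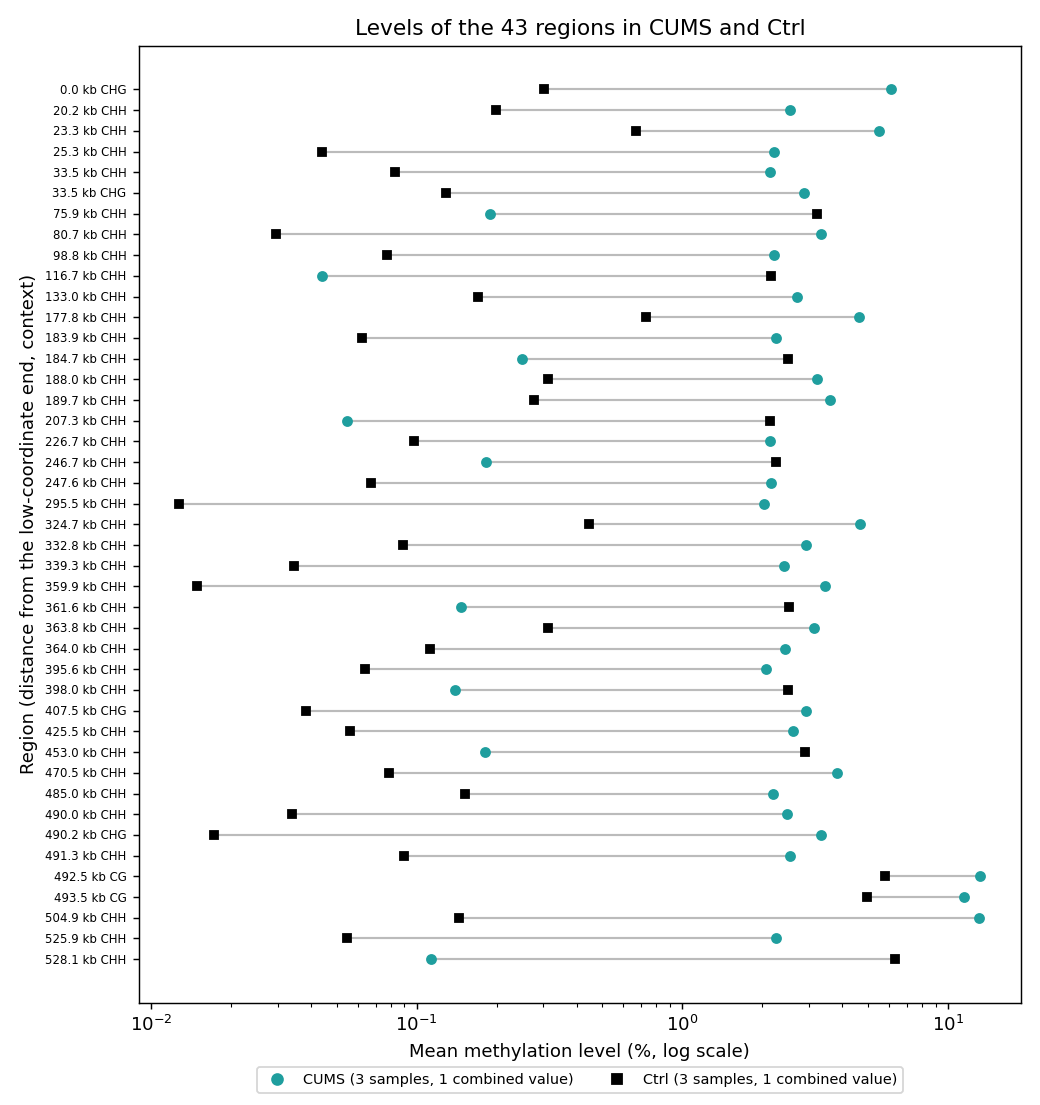
Mean methylation level (%, log scale) of each of the 43 regions in CUMS (circles) and Ctrl (squares), ordered from the low-coordinate to the high-coordinate end of the stretch and labelled with the distance from the low end and the context. The lower group lies below 0.5% in 39 regions, and the CG regions are the only ones with both groups above 1%.

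The 9 annotated members differed by 2.75 to 12.9 points. The smallest of these differences belonged to CHG regions and lay within the range of the regions without annotation, whereas the CG regions, the 3 CHH regions and the exonic CHG region exceeded that range. Of the 37 CHH members 2 reached a difference of 5 points (5.41%, against 13.3% of all CHH regions), and both were annotated. The first, an intronic region at 152297805 to 152298048 that overlaps a SINE element (RSINE1), had 0.145% in Ctrl and 13.1% in CUMS. It was the 1 CHH member over 10 points (2.70%, against 2.94%). The second was the hypomethylated intronic region at 152321046 to 152321278, with 6.31% in Ctrl and 0.113% in CUMS, and it forms the high-coordinate end of the stretch. It was the single hypomethylated member with an annotation. Among the 2146 annotated hypomethylated CHH regions of the series, 43.4% had a larger difference than this one, and among the 7850 hypermethylated ones 19.5% exceeded the RSINE1 region. The third annotated CHH region, at 151816217 to 151816480, had 0.669% in Ctrl and 5.52% in CUMS, and 81.3% had a larger difference.

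These 3 regions were the ones with the most cytosines in the stretch, with 141, 129 and 104, whereas the regions without annotation held 30 to 89. The list that the authors annotated comprised every CG and CHG region and the 10000 CHH regions with the largest absolute score in DSS, and this score grows with the number of cytosines. Which CHH regions of Cacna1c carried an annotation thus went by this score. How far the difference and the number of cytosines each entered into it was not tested.

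The CHG members were hypermethylated throughout. The region at 151792918 to 151793096, annotated to an exon and an intron, had 0.301% in Ctrl and 6.13% in CUMS. The other 3 were intronic and had 2.88% to 3.32% in CUMS and 0.0172% to 0.129% in Ctrl, and 73.4% to 87.4% of all annotated hypermethylated CHG regions had larger differences. One of them, at 152200464 to 152200556, overlapped a LINE element (RNHAL1). For the exonic region the share with a larger difference was 17.7%.

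**Figure D3:**
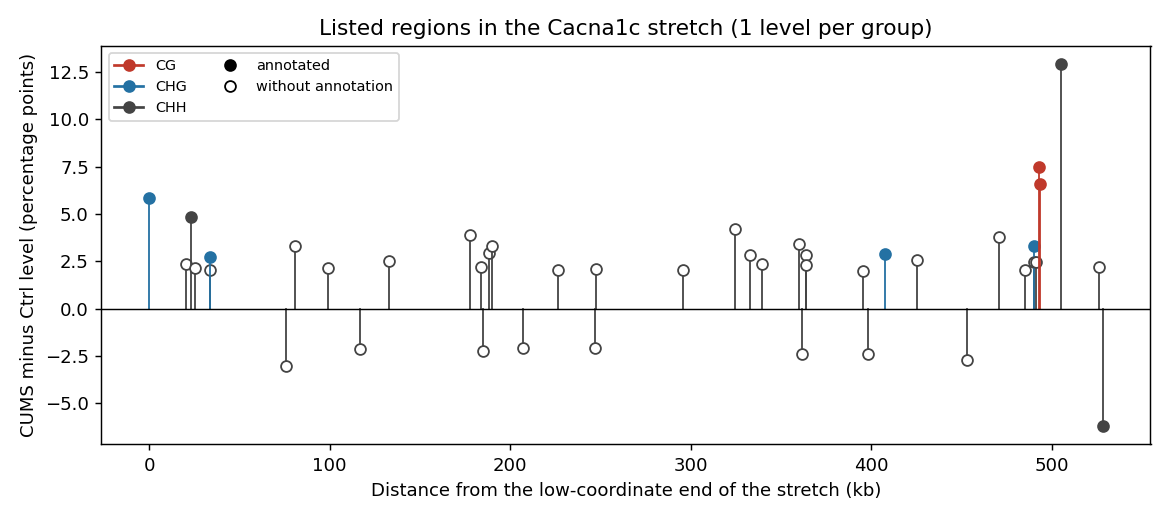
Difference in level between CUMS and Ctrl (percentage points, vertical axis) by distance from the low-coordinate end of the stretch (kb), with 1 stem per region coloured by context, filled for annotated regions and open for those without annotation. Open symbols lie between 2.01 and 4.22 points above 0 or between 2.07 and 3.02 points below it, and no 2 of the 9 hypomethylated regions are neighbours.

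Positions and spacing were examined next. In RefSeq (GRCr8) Cacna1c lies on the minus strand, so transcription runs from the high-coordinate to the low-coordinate end. The median gap between neighbouring CHH members was 10.8 kb, compared with 12.5 kb on chromosome 4 and 12.0 kb on chromosomes 1 to 20. Gaps ranged from 78 bp to 47.8 kb, and 3 of 36 were shorter than 1 kb (8.33%, against 6.66% on chromosomes 1 to 20). The spacing of the members was thus uneven, as it was elsewhere. The first CHH member without annotation, 20.2 kb from the low-coordinate end at 151813148 to 151813276, had 0.199% in Ctrl and 2.54% in CUMS. The last one, 526 kb from that end at 152318823 to 152319030, had 0.0545% and 2.25%. The stretch held 70.03 CHH regions per Mb, compared with 52.1 on chromosome 4 and 54.1 on chromosomes 1 to 20. Its surroundings were nearly as dense. The 528 kb below and above it held 33 and 35 CHH regions, beside 37 in the stretch. Of 345 windows of the same length on chromosome 4, 40 held at least as many CHH regions as the stretch (11.6%), and the median window held 27. On chromosomes 1 to 20 the number was 815 of 4651 windows (17.5%), with a median of 28. The stretch begins and ends at a listed region by its rule, whereas the windows do not, which favours the stretch slightly.

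**Figure D4:**
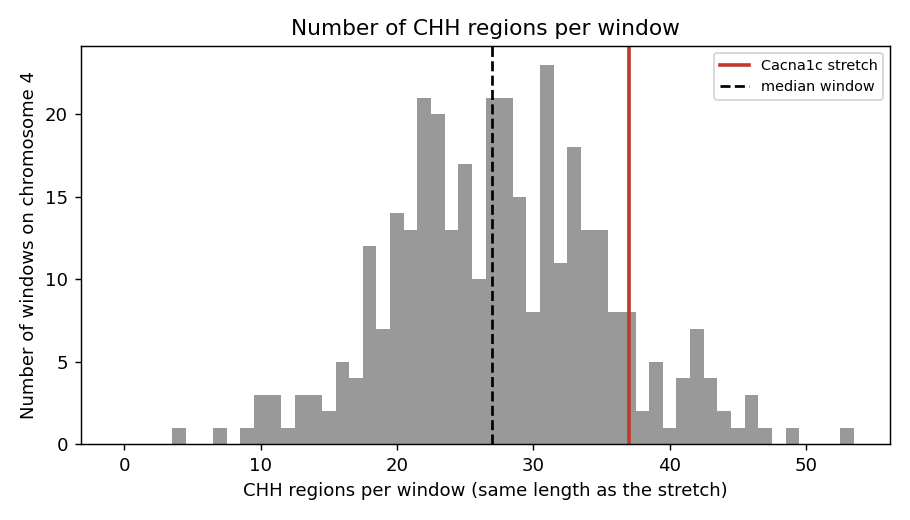
Number of windows on chromosome 4 (vertical axis) by the number of CHH regions they hold (horizontal axis), for 345 adjoining windows as long as the stretch. The solid line marks the 37 CHH regions of the Cacna1c stretch and the dashed line the median window of 27.

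The hypomethylated members lay scattered along the stretch, although with 9 among 43 regions this was not tested against other stretches. Along the stretch, each of the 9 lay between hypermethylated regions or, at the high-coordinate end, beside one, and no pair of them was adjacent. Their gaps ranged from 22.5 kb to 115 kb. Hypermethylated members formed runs of up to 9, the longest of which reached from 471 kb to 526 kb from the low-coordinate end and included the CpG island. Neighbouring CHH members shared their direction in 19 of 36 pairs (52.8%), and 54.7% of such pairs did so on chromosomes 1 to 20. These values are not directly comparable, because they depend on the hypermethylated share. That share was 75.7% in the stretch and 65.02% on chromosomes 1 to 20. When the stretch was divided into 5 equal parts, the numbers of CHH regions from the low-coordinate to the high-coordinate end were 7, 8, 4, 9 and 9, and those of hypomethylated ones 1, 3, 1, 2 and 2. The part in the middle was the sparsest.

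Regions closer than 1 kb formed 7 pairs, of which 5 went the same way. Most members (34 of 43) were hypermethylated, and the same count over all listed regions was not made. No excess of agreeing pairs can therefore be read from it. One pair overlapped: the CHH region at 151826409 to 151826566 (0.0831% in Ctrl and 2.15% in CUMS) shared 107 bp with the CHG region at 151826460 to 151826570 (0.129% and 2.88%), and both were hypermethylated. This was 1 of 37 CHH members (2.70%), whereas 4.19% of all CHH regions overlapped a CHG region. Of the 4 CHG members, 2 overlapped a listed CHH region (50%, against 68.1% of all CHG regions), 1 of them across the low-coordinate end. The nearest neighbours without overlap were hypermethylated CHH regions at 152156695 to 152156875 and 152156954 to 152157125, 78 bp apart, with 3.13% and 2.43% in CUMS and 0.312% and 0.113% in Ctrl. Opposite directions occurred at short distance too. The CHH region at 151976858 to 151976952 was hypermethylated (0.0621% in Ctrl and 2.26% in CUMS), and 650 bp further on lay the hypomethylated region that begins at 151977603. Similarly, a hypomethylated region at 152039599 to 152039717 (2.25% in Ctrl and 0.183% in CUMS) was followed after 760 bp by a hypermethylated one at 152040478 to 152040601 (0.0672% and 2.15%).

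The CpG island of the annotation, at 152285312 to 152287038 in an intron, was the densest place. Within 3.70 kb, from 152282915 to 152286609, lay 5 regions of all 3 contexts, and all were hypermethylated. The CG regions in the island had 5.81% in Ctrl and 13.3% in CUMS (152285442 to 152285582), and 4.94% and 11.5% (152286423 to 152286609). They lay 840 bp apart and differed by 7.47 and 6.58 points. These were small differences for their kind, since the 2991 hypermethylated CG regions in islands had a median difference of 11.4 points (6.28% in Ctrl and 17.9% in CUMS). On the low-coordinate side, 1.05 kb from the island, lay a CHH region at 152284172 to 152284258 with 0.0895% in Ctrl and 2.54% in CUMS. In the island shelf, the annotation class for the outer surroundings of an island, lay a CHH region at 152282915 to 152283028 (0.0339% and 2.49%) and, 101 bp from it, a CHG region at 152283130 to 152283196 (0.0172% and 3.32%). Within 20 kb of the island there were 7 listed regions, 7 hypermethylated and 0 hypomethylated. The hypermethylated share was 65.3% over all listed regions and 79.1% over the 43 members. Whether the few regions near the island differ from these shares was not tested. The nearest hypomethylated member was the one at the high-coordinate end, 34.0 kb from the island. The open sea, the class away from islands, held the remaining 38 members, including all 9 hypomethylated ones.

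**Figure D5:**
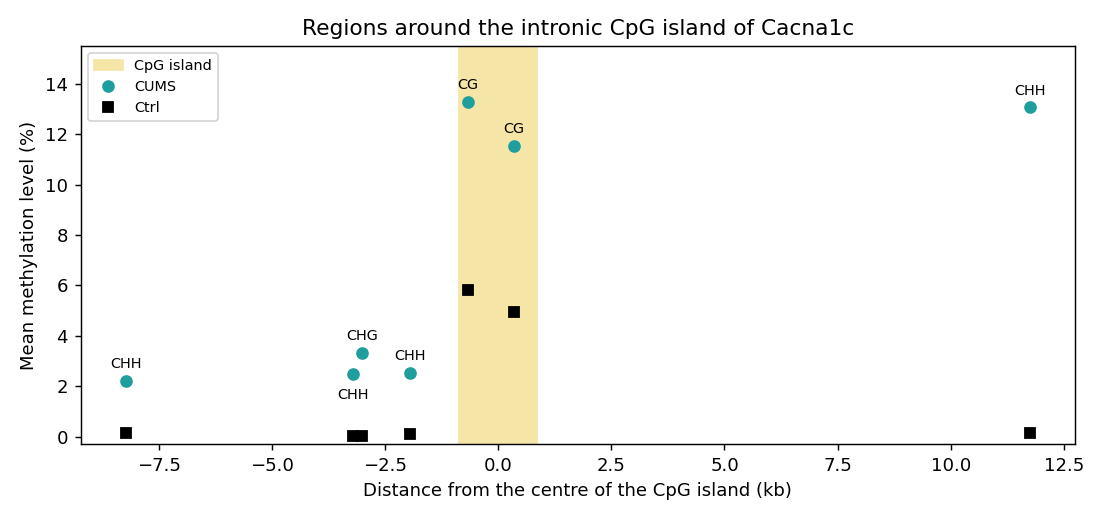
Mean methylation level (%, vertical axis) in CUMS (circles) and Ctrl (squares) of the regions within 15 kb of the centre of the intronic CpG island, by distance from that centre (kb), with the island shaded and the context beside each region. The 2 CG regions lie inside the island with 11.5% and 13.3% in CUMS, and the region farthest to the right is the RSINE1 region with 13.1%.

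Listed regions continued on both sides of the stretch. The interval that the study's methods first gave for the hypomethylated intronic region of Cacna1c, before correcting its coordinates, reached further on both sides. The regions named here and parts of the flanks lie inside that interval. A CHH region at 151792839 to 151793092 crossed the low-coordinate end and shared 175 bp with the exonic CHG region, and it was not counted. Its level was 0.105% in Ctrl and 5.20% in CUMS, a difference of 5.10 points, which no member without annotation reached. The next region on that side was a hypomethylated CHH region 23.3 kb away (2.16% in Ctrl and 0.0155% in CUMS). On the other side, 2 hypermethylated CHH regions lay 2.27 kb and 3.22 kb beyond the hypomethylated end region, with 2.11% and 2.21% in CUMS and 0.0874% and 0.0177% in Ctrl.

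Other subunits of voltage-gated calcium channels were counted in the same way, each over the stretch between the first and last region annotated to it. The list held 11 genes, of which 10 carried an annotated region (all but Cacnb3), and the stretches that exceeded 100 kb numbered 4. In Cacna1d, which encodes the related L-type channel Cav1.3, the full list held 10 hypermethylated and 3 hypomethylated regions over 193 kb, 9 of them CHH regions without annotation. Its hypermethylated share of 76.9% was close to that of Cacna1c, on few regions. Among the beta subunit genes, Cacnb2 held 7 and 5 regions over 161 kb (58.3% hypermethylated) and Cacnb4 8 and 4 over 221 kb (66.7%). In Cacna2d2, an alpha2delta gene, the numbers were 6 and 3 over 108 kb. The CHH regions per Mb were 57.0 in Cacna1d, 74.3 in Cacnb2, 45.3 in Cacnb4 and 46.4 in Cacna2d2, against 70.03 in Cacna1c. The stretches of Cacna1f, Cacnb1 and Cacna2d3 were shorter than 21 kb and held 4, 2 and 2 regions. Cacna1s, Cacna2d1 and Cacna2d4 carried a single annotated region each, hypermethylated in Cacna1s and Cacna2d1. That of Cacna2d4, another alpha2delta gene, lay 99.9 kb from the Cacna1c stretch at 152421187 to 152421246. It was a CG region of 60 bp and 12 sites with 89.6% in Ctrl and 59.3% in CUMS, and its difference in size exceeded that of every Cacna1c member. The contexts are not alike in this. Over the full list, hypomethylated CG regions had a median difference of 19.1 points, against 2.64 points for hypomethylated CHH regions without annotation.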

How the data were processed

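Methylation was measured in hippocampal BMECs of 3 CUMS and 3 Ctrl samples, grouped by sample title. Per the study's methods and the submitters' processing notes, libraries were made after TET2 and APOBEC3A treatment, reads were trimmed with fastp 0.20.0 and aligned to mRatBN7.2 with Bismark 0.16.3, and regions were called with DSS. A cytosine that escapes deamination is read as methylated. Levels were deposited as a fraction, 1 value per group and region, and are given in percent. The score of DSS in the authors' deposited tables served only to establish how the annotated list was made. The authors' difference column was not used, and differences were recomputed from the levels. A profile over all genes was not used. No genome of this build was used, so no sequence is given.

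Members, gene list and alternatives were chosen with earlier results of these data known. Named were the annotated regions, the 5 hypermethylated and 5 hypomethylated CHH regions without annotation that differed most, the first and last of these by position, pairs closer than 1 kb, and overlaps between contexts. Regions overlapped when they shared at least 1 bp. Spans of chromosomes ran from their first to their last listed region. The planned test over samples was replaced by a description, because the tables hold no value per sample, p-value or coverage. Shelf and open-sea limits of members without annotation were read from the intervals named for annotated members. Counting functions were tested on simulated data. Python 3.11.15, pandas 2.3.3 and scipy 1.17.1 were used.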

Additional observations from a re-analysis of the deposited data

How the results depend on the processing

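No paired analysis was possible because samples were combined into 1 value per group before deposit, which also left no replicate to leave out. Alternatives were set against 11 results in 49 comparisons, of which 34 gave the same answer, 15 moved and 0 reversed. Counts were taken as moved beyond 1.5 times, shares beyond their 95% exact binomial limits. These limits treat the regions as independent and do not measure the spread between rats. All moves occurred under settings that left fewer regions, and the CG and CHG settings also restricted the context. A count cannot reverse, and most other settings kept nearly the same regions, so the tally is not separate support. A difference of at least 5 points left 4 hypermethylated and 1 hypomethylated member, and 0 of either kind among CHH regions without annotation. At least 10 points left 1 and 0 (100% hypermethylated), the CG context 2 and 0 (100%), the CHG context 4 and 0 (100%), and the annotated list 8 and 1. Joining neighbours, widening the stretch by 50 kb, a minimum of 100 bp and the CHH context alone moved no count or share of all members. Counting the region that crosses the low-coordinate end, chosen after the data were seen, gave 35 and 9. The depth per region, which the tables do not give, limits every level, and levels near 0 most.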
